A study of Mus musculus with 10 samples.

Results

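The genes described here are 48 genes of the cell cycle and mitosis, chosen by symbol and followed through the livers of 2 mouse models of cholangitis. All 48 were found among 59408 gene models, and 47 had at least 10 normalised reads in at least 3 of the 10 libraries. By the phase in which their products act, 8 belong to entry from G1 into S phase, 13 to S phase and 27 to G2 and M phase. Cenpe, a centromere motor of G2 and M phase, was the gene under the filter, with 10.4, 2.57, 0 and 0 reads in the controls, 4.97, 0 and 4.23 in PBC and 6.57, 3.23 and 1.64 in PSC. Plk1, a mitotic kinase, shares 1 merged gene model with Dctn5, so the reads of the pair cannot be told apart.

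Bulk RNA sequencing covered liver tissue of wild type C57BL/6 mice, all taken at day 35, with 4 untreated controls, 3 PBC mice and 3 PSC mice. The PBC mice, a model of autoimmune primary biliary cholangitis, were immunised at days 0, 14 and 28 with 100 µg of 2-octynoic acid coupled to BSA, first in complete and then in incomplete Freund's adjuvant. They also received 2 µg of α-galactosylceramide, a glycolipid that activates natural killer T cells, with the first and second of these injections. The PSC mice, which model primary sclerosing cholangitis without autoimmunity, ate chow holding 0.089% DDC (3,5-diethoxycarbonyl-1,4-dihydrocollidine, which damages the biliary tree) for 2 weeks, plain chow for 1 week and DDC chow for 1 more week. The labels do not say what they ate from then until day 35. The controls are labelled untreated, so they received neither adjuvant nor glycolipid, and the labels used here state no age.

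A cell that commits to division makes D-type cyclins, which with Cdk4 loosen the hold of the retinoblastoma family on E2F transcription factors. E2F then turns on cyclin E and the genes that copy DNA, and later a B-Myb and FoxM1 programme turns on cyclin B, the mitotic kinases and the spindle genes. Most hepatocytes of an adult liver rest outside the cycle and can re-enter it after injury, while bile duct cells, stellate cells and immune cells can divide in inflamed liver. In bulk liver tissue, transcripts of G2 and M genes may come from any of these cells, and their source cannot be told from these data.

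The promoters of these genes differ by phase, as background to which of them moved together. RefSeq windows (GRCm38.p6) from 250 bases before to 50 after a transcription start were found for 37 of the 48 genes. The cell cycle homology region (CHR), searched on both strands as TTTGAA, is the element through which the MuvB core binds G2 and M promoters. It stood in 76.2% of the 21 G2 and M genes with a window, in 9.09% of the 11 S phase genes, in 0% of the 5 G1 and S entry genes, and in 20.2% of all 27025 genes with a window. The CCAAT box, searched as CCAAT on both strands, stood in 90.5% of the G2 and M genes, 81.8% of the S phase genes and 41.1% of all genes. E2F sites, searched on both strands as TTTCCCGC, TTTGGCGC, TTTCGCGC or TTTGCCGC, stood in 45.5% of the S phase genes, 4.76% of the G2 and M genes and 2.6% of all genes. Matches of different motifs, or of 1 motif on both strands, may share bases, as a pair of E2F matches does in Mcm6.

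The windows printed run 5′ to 3′ on the strand of the gene from 170 bases before to 30 after the start, with CHR, CCAAT and E2F matches in capitals. Cdk1 (chr10:69352883-69353082, minus strand), Mki67 (chr7:135716350-135716549, minus), Cdc20 (chr4:118437314-118437513, minus) and Ube2c (chr2:164769759-164769958, plus) are shown because they had the smallest p-values in PSC among the genes with a window that could be printed. Ccnb1 (chr13:100786457-100786656, minus) is shown because it rose in PSC without a CHR match. A CHR match here means TTTGAA on either strand, and no other spelling of the element was searched. Mcm6 (chr1:128359676-128359875, minus) is shown as an S phase gene with E2F matches, which 45.5% of the S phase genes with a window held. No S phase gene passed the test.
Cdk1: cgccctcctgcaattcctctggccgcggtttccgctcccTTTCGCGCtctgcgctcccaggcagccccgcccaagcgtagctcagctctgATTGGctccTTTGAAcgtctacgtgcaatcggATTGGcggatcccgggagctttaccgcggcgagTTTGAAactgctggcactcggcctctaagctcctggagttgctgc
Mki67: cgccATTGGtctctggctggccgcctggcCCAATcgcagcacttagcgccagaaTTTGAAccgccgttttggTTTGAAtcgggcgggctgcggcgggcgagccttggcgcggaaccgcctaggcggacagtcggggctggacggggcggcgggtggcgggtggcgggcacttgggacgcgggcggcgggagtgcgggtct
Cdc20: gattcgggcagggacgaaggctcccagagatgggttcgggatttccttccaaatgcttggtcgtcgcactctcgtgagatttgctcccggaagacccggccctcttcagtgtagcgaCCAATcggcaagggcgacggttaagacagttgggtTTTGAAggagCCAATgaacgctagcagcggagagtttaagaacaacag
Ube2c: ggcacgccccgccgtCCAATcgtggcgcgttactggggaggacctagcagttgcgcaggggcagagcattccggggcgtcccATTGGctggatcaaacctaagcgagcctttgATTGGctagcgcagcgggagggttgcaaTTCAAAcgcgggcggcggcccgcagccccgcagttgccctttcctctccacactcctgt
Ccnb1: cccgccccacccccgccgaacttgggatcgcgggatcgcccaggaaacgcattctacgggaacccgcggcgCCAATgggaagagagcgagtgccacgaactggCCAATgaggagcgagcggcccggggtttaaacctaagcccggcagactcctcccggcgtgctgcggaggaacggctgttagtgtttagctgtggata
Mcm6: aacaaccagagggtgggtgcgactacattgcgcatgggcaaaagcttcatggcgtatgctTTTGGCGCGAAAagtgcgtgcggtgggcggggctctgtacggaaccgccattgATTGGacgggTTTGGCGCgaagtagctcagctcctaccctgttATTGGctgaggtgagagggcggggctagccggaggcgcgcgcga

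Cdk1 and Mki67 each hold a pair of TTTGAA matches, Cdc20 holds 1 and Ube2c holds 1 on the opposite strand (TTCAAA). Cdk1 also holds an E2F match, TTTCGCGC, the 1 such match among these G2 and M genes. Mcm6 holds E2F letters and CCAAT boxes but no CHR match. Of the 14 genes with a window that rose in PSC, 11 held a CHR match, and those without one were Birc5, Bub1 and Ccnb1. Among the 6 G2 and M genes with a window that were tested and did not pass in PSC, 5 held one, so the letters did not separate genes that passed from genes that did not. A match of letters is a description of the sequence and not a measured binding site.

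Sequencing depth ran from 38272053 reads in control 3 to 95422289 in PSC 11, up to 2.49 times apart, and values are reads after the authors' normalisation. Hepatocyte markers, albumin foremost, were the most abundant of the cell type markers in every library. Mitochondrial genes took 13.7% of the reads of control 2 and no more than 8.67% in any of the other 9 livers. PSC 11 stood apart among the PSC livers in the G2 and M genes, as described below, and was also the most deeply sequenced. Changes are log2 fold changes of normalised reads plus 1, with the standard error (SE), from limma fitted to all 18390 genes that passed the filter, and a gene was called at an adjusted p of 0.05 or less. Both models were compared with the same 4 controls, so their results share the error of those controls.

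Set against untreated liver, 6 of the 26 tested G2 and M genes rose in PBC and 18 in PSC, while no S phase gene passed the test in either. In PBC 6 of the 47 tested genes rose and 0 fell, a share of 12.8% higher where 7.6% of all tested genes rose and 2.34% fell (9.94% in either direction). At an unadjusted p under 0.05 there were 19, where 26.5% of all tested genes were so placed. In PSC 18 rose and 1 fell, a share of 38.3% higher where 8.25% of all tested genes rose and 6.48% fell (14.7% in either direction). At an unadjusted p under 0.05 there were 30, against 30.1% of all tested genes. All 18 were G2 and M genes, which gives 69.2% of the 26 tested, and the 6 of PBC were G2 and M genes too (23.1%). The gene that fell was Ccnd1, a D-type cyclin of G1. The 6 genes of PBC are all among the 18 of PSC (100% of the first list and 33.3% of the second), and these lists share their controls. With reads scaled by TMM, all tested genes in PBC split into 1175 higher and 593 lower against 1398 and 430 as deposited.

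**Figure D1:**
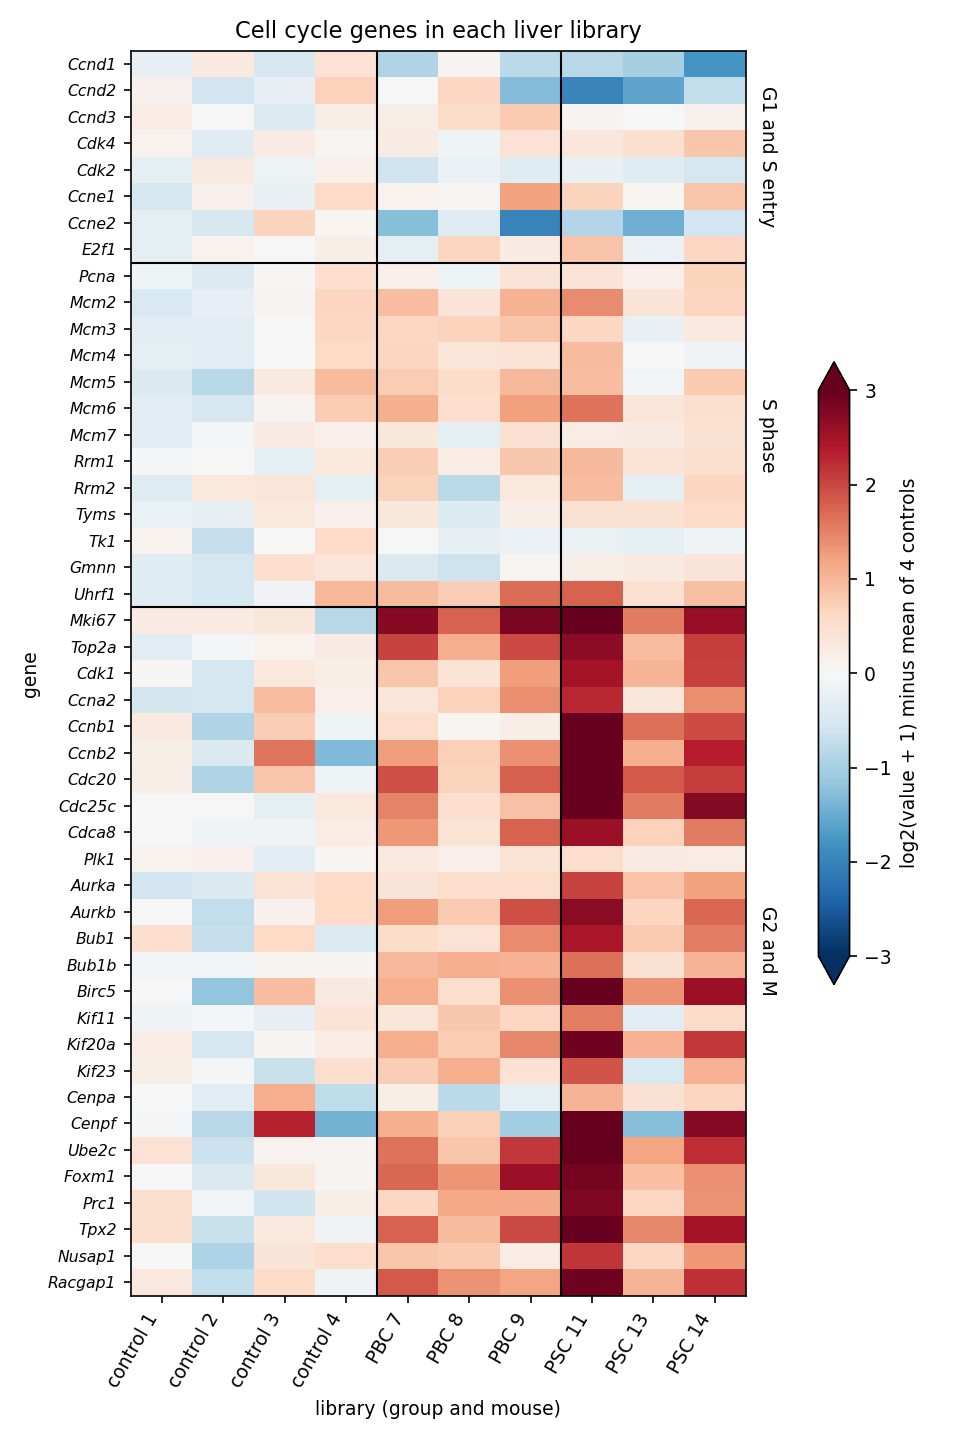
Each row is 1 of the 47 tested genes and each column 1 liver; colour gives log2(value + 1) minus the mean of the 4 controls, and the colour scale ends at 3 in either direction, so larger values share the end colour. The G2 and M block is above the control mean in most PBC and PSC livers and deepest in PSC 11, whose median over the 26 genes was 2.76.

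Over the 26 G2 and M genes the median change was 0.98 in PBC, with 25 above 0, and 1.71 in PSC, with 26 above 0, beside medians of 0.01 and 0.06 over all tested genes. Every PBC liver was above every control for 14 of the 26 genes, where 12.7% of all tested genes were so placed, and for 0 of the 47 genes was every PBC liver below every control, against 6.89%. Every PSC liver was above every control for 20 of the 26, against 15.9% of all tested genes. In bulk tissue, a change in the number of cycling cells and a change in transcript per cell cannot be told apart.

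Mki67 and Top2a mark cycling cells. Mki67, the Ki-67 protein that coats mitotic chromosomes (gene at chr7:135689784-135716418 on mm10), had 33.7, 33.4, 35.8 and 15.3 in the controls, 191, 98.8 and 203 in PBC and 253, 84.1 and 177 in PSC. All 6 cholangitis livers lay above the highest control, and the PBC and PSC ranges overlapped. Its change was 2.44 (SE 0.44, limma adjusted p = 0.00419) in PBC and 2.43 (SE 0.44, limma adjusted p = 0.00354) in PSC, and it was called in every alternative and with any 1 library left out in both models. Control 4 was the low control for Mki67. Top2a, the topoisomerase that untangles sister chromatids, had 57.0, 68.0, 76.6 and 84.7 in the controls, 293, 153 and 281 in PBC and 463, 136 and 299 in PSC. The cholangitis livers were again all above the controls, with PBC 8 and PSC 13 lowest in their groups. Top2a changed by 1.70 (SE 0.39, limma adjusted p = 0.0159) in PBC and by 1.89 (SE 0.39, limma adjusted p = 0.00696) in PSC. Without PBC 7 or PBC 9 the PBC call of Top2a was lost (limma adjusted p = 0.0681 and 0.0789).

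**Figure D2:**
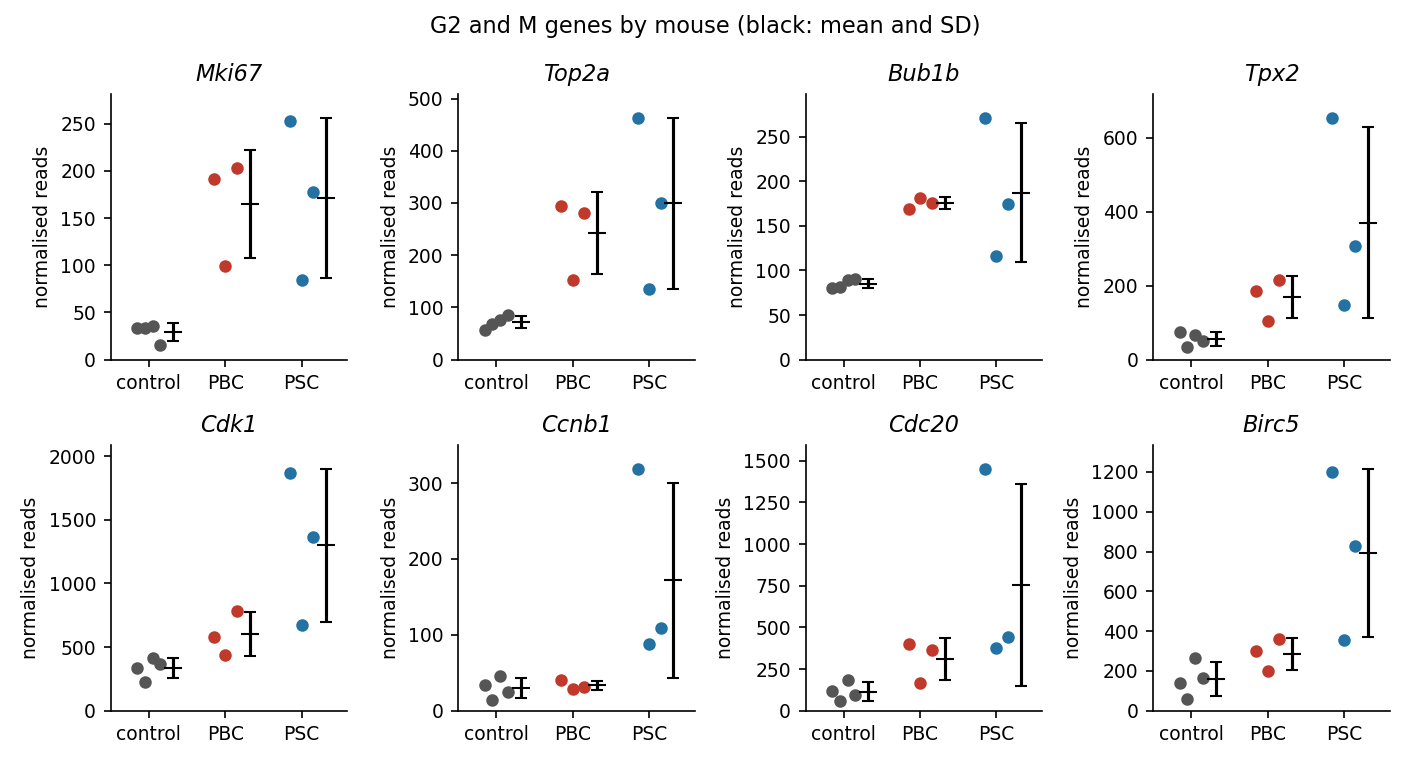
Normalised reads (linear axis from 0) of 8 G2 and M genes in each liver, coloured by group, with the group mean and SD in black (n = 4 controls, 3 PBC, 3 PSC). Mki67, Top2a and Bub1b are at like levels in PBC and PSC, while Ccnb1 is at 28.7 to 39.8 in PBC, within the control range, and at 87.3 to 319 in PSC.

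Cdk1 and its partners start mitosis. Cdk1, the kinase that binds cyclins A and B, had 337, 227, 411 and 368 in the controls, 582, 437 and 781 in PBC and 1869, 671 and 1362 in PSC. In PSC it rose by 1.86 (SE 0.34, limma adjusted p = 0.00333), and its call held in every alternative and with each library left out. In PBC its values were also all above the controls, yet the change of 0.83 (SE 0.34) did not pass (limma adjusted p = 0.133). Ccnb1, cyclin B1, had 33.7, 14.1, 46.0 and 25.0 in the controls, 39.8, 28.7 and 31.7 in PBC and 319, 87.3 and 108 in PSC. PSC livers lay above all others, and PBC livers lay within the control range. Ccnb1 changed by 2.36 (SE 0.50, limma adjusted p = 0.00813) in PSC, which fell to 1.80 without PSC 11 (limma adjusted p = 0.053), and by 0.27 (SE 0.50, limma adjusted p = 0.774) in PBC. Ccnb2, cyclin B2, had 64.8, 42.4, 176 and 22.2 in the controls, 139, 95.6 and 150.2 in PBC and 477, 121 and 301 in PSC. Control 3 was above PSC 13 for Ccnb2, so the groups overlapped although the PSC change of 2.15 was called (limma adjusted p = 0.0295). This call was lost without control 1, control 2, control 4, PSC 11 or PSC 14 (limma adjusted p = 0.0565 to 0.134).

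Cdc25c, the phosphatase that activates Cdk1, was a low gene with 6.48, 6.42, 5.11 and 8.33 in the controls, 19.9, 9.56 and 12.7 in PBC and 106, 21.0 and 49.3 in PSC. Its change in PSC of 2.71 (SE 0.60, limma adjusted p = 0.00988) was the largest PSC change among the 47 genes, and the call was lost without PSC 11 (0.0737) or PSC 14 (0.0567). No control reached the filter value of 10, so Cdc25c entered the test through cholangitis livers alone. Its PBC values were all above the controls with a change that did not pass (0.95, adjusted p = 0.337 by limma). Foxm1, the factor that drives G2 and M transcription, was lower still, at 2.57 to 5.11 reads in the controls, 11.2 to 27.5 in PBC and 8.09 to 34.7 in PSC. Foxm1 was above every control in all 6 cholangitis livers without passing in either model (limma adjusted p = 0.0915 and 0.0997). Like Cdc25c, Foxm1 entered the test through cholangitis livers alone. Ccna2, cyclin A2, overlapped between groups and did not pass (limma adjusted p = 0.315 in PBC and 0.082 in PSC). DESeq2 called Foxm1 and Ccna2 in PSC. The merged model of Plk1 and Dctn5 stood at 2143 to 2932 in the controls, 2955 to 3559 in PBC and 3111 to 3806 in PSC and passed in neither, although all 6 cholangitis livers were above the controls.

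The Aurora kinases and their partners build and correct the spindle. Aurka, the kinase of the spindle poles, had 35.0, 38.5, 71.5 and 79.1 in the controls, 69.6, 76.5 and 76.2 in PBC and 217, 95.4 and 123 in PSC. Its PBC values stayed inside the control range (0.48, limma adjusted p = 0.457), and it rose in PSC by 1.36 (SE 0.39, limma adjusted p = 0.0328), lost without control 1 (0.0887), control 2 (0.0726), PSC 11 (0.156) or PSC 14 (0.0969), with no filter (0.0612) and with equal totals (0.0528). Tpx2, which activates Aurka on the spindle, had 75.1, 33.4, 66.4 and 49.98 in the controls, 187, 105 and 216 in PBC and 655, 149 and 307 in PSC. Tpx2 was above every control in all 6 cholangitis livers and changed by 1.57 (SE 0.46, limma adjusted p = 0.0474) in PBC and 2.51 (SE 0.46, limma adjusted p = 0.00377) in PSC. In PBC the call of Tpx2 was lost without any 1 control, PBC 7, PBC 9 or PSC 14 (limma adjusted p = 0.0608 to 0.182), and in edgeR, with TMM, equal totals or no filter, or in a fit of PBC and control livers alone (adjusted p = 0.0553 to 0.0728). In PSC it held with each library left out.

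Aurkb, Birc5 and Cdca8 form the chromosomal passenger complex with Incenp. Birc5, survivin, had 137, 60.3, 266 and 167 in the controls, 298, 199 and 359.7 in PBC and 1198, 354 and 828 in PSC. Its PSC change was 2.34 (SE 0.48, limma adjusted p = 0.0067), called with each library left out, and in PBC, where control 3 was above PBC 8, it was 1.00 (limma adjusted p = 0.203). Aurkb, the kinase of the complex, had 70.0, 41.1, 76.6 and 106 in the controls, 167, 121 and 267 in PBC and 461, 110.0 and 230.1 in PSC. Cdca8, borealin, had 82.9, 75.7, 76.6 and 95.8 in the controls, 204, 109.9 and 284 in PBC and 496, 134 and 243 in PSC. For both genes all cholangitis livers were above all controls. In PSC Aurkb rose by 1.69 (SE 0.46, limma adjusted p = 0.0284) and Cdca8 by 1.61 (SE 0.42, limma adjusted p = 0.022). Both calls were lost without control 1, PSC 11 or PSC 14 (limma adjusted p = 0.0501 to 0.138), and that of Aurkb also without control 2 (0.0681). In PBC neither passed in limma (adjusted p = 0.0867 for Aurkb and 0.0929 for Cdca8), while DESeq2 called both.

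The checkpoint and the anaphase-promoting complex set the time of chromosome separation. Bub1b, the BubR1 checkpoint protein, had 80.3, 80.9, 89.4 and 90.2 in the controls, 169, 182 and 176 in PBC and 271, 116 and 174 in PSC. The control values lay close together, and PBC and PSC were at like means of 175 ± 6.27 and 187 ± 78.1 (SD, n = 3 each) against 85.2 ± 5.35 (n = 4). Bub1b rose by 1.03 (SE 0.29, limma adjusted p = 0.0421) in PBC and by 1.04 (SE 0.29, limma adjusted p = 0.032) in PSC. The PBC call was lost without any 1 control, PBC 7, PBC 9 or PSC 14 (limma adjusted p = 0.0605 to 0.122), and in edgeR, with TMM, equal totals or no filter, or in a fit of PBC and control livers alone (adjusted p = 0.0599 to 0.101). The PSC call was lost without control 1, control 2, PSC 11 or PSC 14 (limma adjusted p = 0.0594 to 0.156), with no filter (0.0575) and with equal totals (0.0606). Bub1, the kinase of the same checkpoint, had 45.3, 19.2, 48.5 and 23.6 in the controls, 47.2, 43.0 and 86.8 in PBC and 176, 55.0 and 93.7 in PSC. It rose in PSC by 1.58 (SE 0.48, limma adjusted p = 0.0425), a call lost without control 1, control 2, control 4, PSC 11 or PSC 14, with no filter and with equal totals (limma adjusted p = 0.0566 to 0.192), and in PBC the groups overlapped (limma adjusted p = 0.31).

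Cdc20, the activator of the complex, had 120.5, 55.2, 186 and 94.4 in the controls, 398, 167 and 364 in PBC and 1453, 374 and 440.4 in PSC. PSC 11 held more than the other PSC livers together, and the PSC change of 2.56 (SE 0.50, limma adjusted p = 0.00529) became 1.95 without it, still called. In PBC the change of 1.47 did not pass (limma adjusted p = 0.0796), with PBC 8 below control 3, and it passed in DESeq2, with array weights, and without PBC 8 or PSC 11. Ube2c, the ubiquitin-conjugating enzyme of the complex, had 141, 66.8, 112 and 111 in the controls, 326, 185 and 455 in PBC and 827, 239 and 488 in PSC. All 6 cholangitis livers exceeded the controls, with changes of 1.52 (SE 0.42, limma adjusted p = 0.0369) in PBC and 2.13 (SE 0.42, limma adjusted p = 0.00556) in PSC. Without PBC 9 the PBC change was 1.23 and did not pass (limma adjusted p = 0.17), and leaving out control 2, control 3, control 4, PBC 7 or PSC 14 also ended that call (0.0553 to 0.108), as did equal totals (0.0586), while the PSC call held with each library left out.

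The genes of the central spindle act at cytokinesis, when the daughter cells part. Kif20a, a motor that carries the passenger complex to the midzone, had 88.1, 52.6, 79.2 and 87.5 in the controls, 162, 127 and 205 in PBC and 579.6, 155 and 329 in PSC. Racgap1, which with Kif23 forms centralspindlin, had 84.2, 39.8, 99.6 and 59.7 in the controls, 244, 170.5 and 152 in PBC and 511, 136 and 311 in PSC. Prc1, which bundles midzone microtubules, had 49.2, 33.4, 23.0 and 40.3 in the controls, 54.7, 79.7 and 78.3 in PBC and 251, 55.0 and 90.4 in PSC. For these 3 genes every cholangitis liver was above every control and PSC 11 was the highest library. Kif20a rose in PSC by 2.02 (SE 0.39, limma adjusted p = 0.00529), called with each library left out. Racgap1 rose in PBC by 1.45 (SE 0.43, limma adjusted p = 0.0499), close to the threshold, and in PSC by 2.04 (SE 0.43, limma adjusted p = 0.00819). In PBC the call of Racgap1 was lost without any 1 PBC liver, control 1, control 2, control 4 or PSC 14 (limma adjusted p = 0.0546 to 0.166). It was also lost in 7 of the 10 other settings, all but a pseudocount of 5, a filter at 50 and DESeq2 (adjusted p = 0.0514 to 0.0822). In PSC the call of Racgap1 was lost without PSC 11 (limma adjusted p = 0.0504). Prc1 rose in PSC by 1.59 (SE 0.47, limma adjusted p = 0.0395), which became 0.98 without PSC 11 (limma adjusted p = 0.19), and the call was lost without any 1 of the 4 controls too, without PSC 14, with array weights (0.0644), with no filter (0.0698) and with equal totals (0.0689). Kif20a and Prc1 did not pass in PBC (limma adjusted p = 0.0952 and 0.211).

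Of the other G2 and M genes, Nusap1, a spindle-associated protein, was just above the threshold in PSC (1.36, limma adjusted p = 0.0502), at 244, 84.1 and 136 reads against 28.2 to 79.1 in the controls. It was called in PSC by edgeR and DESeq2. Kif11, the motor that separates the spindle poles, and Kif23 overlapped between groups, with PSC changes of 0.59 and 0.83 that did not pass. Cenpa, the histone that marks centromeres, was already at 1312, 1036, 2813 and 779 in the controls and was the 1 tested G2 and M gene with a change below 0 in PBC (-0.29, limma adjusted p = 0.653). Cenpf, a kinetochore protein, ran from 1.39 to 30.6 in the controls, 2.12 to 12.4 in PBC and 1.62 to 66.6 in PSC, and its change in PSC had the widest standard error of the 47 genes (1.16). Per kilobase of exon, control means among the G2 and M genes ran from 0.375 normalised reads for Cenpe and 0.645 for Cenpf to 68.1 for Cdk1 and 253.4 for Cenpa. Mki67 stood at 2.93 per kilobase in the controls, 16.3 in PBC and 17.1 in PSC, and Cdc20 at 61.1, 165.8 and 404.5.

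**Figure D3:**
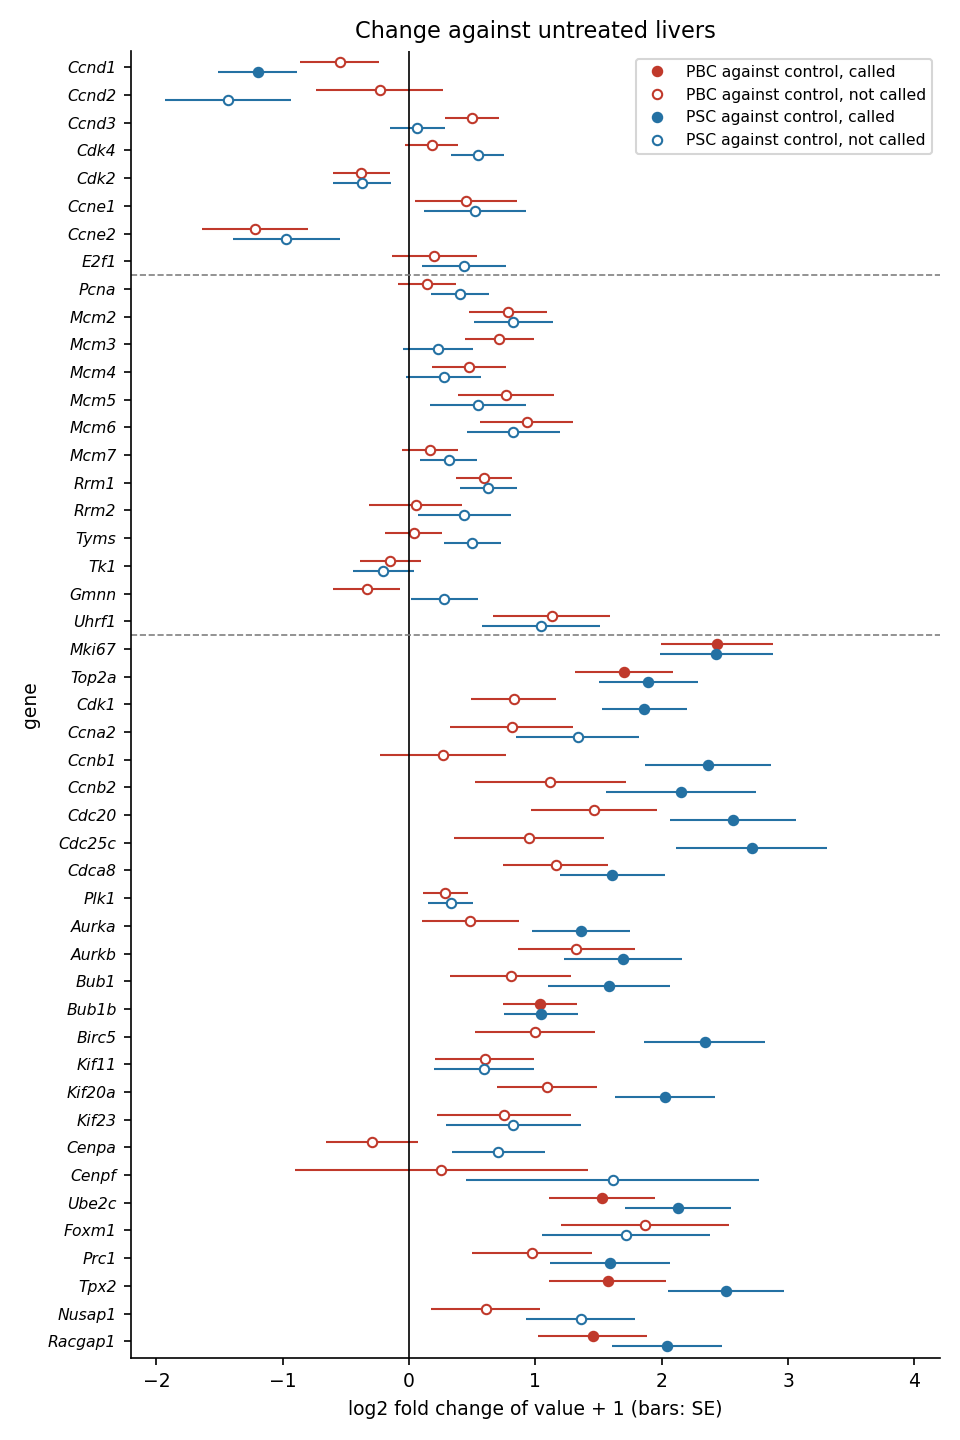
Log2 fold change of value + 1 against the 4 controls for the 47 tested genes, with bars of 1 SE, PBC in red and PSC in blue, filled where limma's adjusted p was 0.05 or less. The filled points lie among the G2 and M genes in the lowest block except for Ccnd1 in PSC, and both series share the same controls.

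The direct comparison of the models asked whether these genes differ between PBC and PSC livers. By limma 0 of the 47 genes passed in either direction, where 1.11% of all tested genes were higher in PBC, 1.13% lower and 2.24% either. Every PBC liver was above every PSC liver for 2 of the 47, Ccnd3 and Mcm3, against 14.6% of all tested genes. At an unadjusted p under 0.05 there were 8, of which 7 were lower in PBC, beside 18.5% of all tested genes in either direction. With equal library totals, all tested genes split into 128 higher and 228 lower in PBC against 204 and 208 as deposited. The nearest to the threshold was Ccnb1, at -2.10 in PBC relative to PSC (95% interval -3.25 to -0.94, limma adjusted p = 0.0622), with every PBC liver below every PSC liver. It passed in edgeR (-2.43, adjusted p = 0.0324), in DESeq2 (-2.42, adjusted p = 0.00108), with a pseudocount of 5 (limma adjusted p = 0.0441) and without control 2 (limma adjusted p = 0.0487). DESeq2 also called Cdk1 (-1.16, adjusted p = 0.0334), Birc5 (-1.52, adjusted p = 0.033) and Cdc25c (-2.15, adjusted p = 0.0417) lower in PBC. The median over the 26 G2 and M genes was -0.69, and -0.27 without PSC 11. Mki67, by contrast, was at 0.01 with a 95% interval of -1.01 to 1.03, and Bub1b at -0.01 with -0.69 to 0.67. Aurka, Cdc25c, Cenpa and Ccnb1 were the 4 G2 and M genes with every PBC liver below every PSC liver, where 12.6% of all tested genes were so placed.

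The 13 S phase genes code for the helicase that opens DNA, the sliding clamp and enzymes that make nucleotides, and also include Gmnn and Uhrf1. By limma 0 of 13 passed in PBC, in PSC or between the models, and edgeR and DESeq2 also called 0 in each. At an unadjusted p under 0.05, 5 were higher in PBC, 5 in PSC and 1, Gmnn, was lower in PBC than in PSC. The median changes were 0.48 in PBC and 0.44 in PSC, beside 0.01 and 0.06 over all tested genes. With array quality weights, which give deviating libraries less weight, 6 were called higher in PBC, namely Mcm2, Mcm3, Mcm5, Mcm6, Rrm1 and Uhrf1, and 8 in PSC, namely Gmnn, Mcm2, Mcm6, Mcm7, Pcna, Rrm1, Tyms and Uhrf1.

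Uhrf1, which passes DNA methylation on to the new strand, had 23.3, 20.5, 28.1 and 61.1 in the controls, 59.7, 51.0 and 99.5 in PBC and 105, 42.0 and 57.5 in PSC. Control 4 was above PBC 7, PBC 8, PSC 13 and PSC 14, so the groups overlapped, with changes of 1.13 (SE 0.47, limma adjusted p = 0.139) in PBC and 1.05 (SE 0.47, limma adjusted p = 0.149) in PSC. Mcm6, a subunit of the helicase, had 168, 149, 227 and 362 in the controls, 445, 301 and 506 in PBC and 664, 275 and 297 in PSC. Here too control 4 exceeded PBC 8, PSC 13 and PSC 14, and the changes were 0.93 and 0.83 (limma adjusted p = 0.123 and 0.15). Mcm3 was the 1 S phase gene with every PBC liver above every control, at 492, 515 and 563 against 256, 254, 319 and 491 (limma adjusted p = 0.115). Rrm1, the large subunit of ribonucleotide reductase, had 1849, 1255 and 1311 in PSC, all above the controls at 779 to 1162 (limma adjusted p = 0.075), and Tyms, thymidylate synthase, was placed likewise at 1157 to 1260.5 against 707 to 1042. Mcm2 was at 0.78 and 0.83, and Mcm4, Mcm5 and Mcm7 between 0.16 and 0.77 over both models, none past the threshold.

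Pcna, the sliding clamp, was the most abundant of the 48 genes per kilobase of exon, at 1148 normalised reads in the controls, followed by Gmnn at 1027, Cdk4 at 1011 and Tk1 at 937. Pcna ran at 2011 to 3785 in the controls, 2465 to 3523 in PBC and 2984 to 4259.6 in PSC, all overlapping. Tk1, thymidine kinase, was at -0.15 and -0.20, and Gmnn, geminin, at -0.33 in PBC and 0.28 in PSC. Rrm2, the small subunit of ribonucleotide reductase, varied within each group, from 438 to 743 in the controls and 327 to 918 in PBC. Among the controls, control 4 was highest in 9 of the 13 S phase genes and control 2, the library rich in mitochondrial reads, lowest in 9.

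The 8 genes of G1 and S entry did not move as a block, with median changes of -0.03 in PBC and -0.15 in PSC. Ccnd1, cyclin D1 (gene at chr7:144929931-144939925 on mm10), had 1448, 2099, 1221 and 2289 in the controls, 913, 1802 and 969 in PBC and 960.5, 862 and 496 in PSC. Every PSC liver was below every control, as were PBC 7 and PBC 9, while PBC 8 lay within the control range. Ccnd1 fell in PSC by 1.20 on the log2 scale (SE 0.31, limma adjusted p = 0.0227) and was at -0.55 in PBC (limma adjusted p = 0.287). The call was lost with equal library totals (limma adjusted p = 0.0543) and without control 2 (0.0562), control 4 (0.0538) or PSC 14 (0.134).

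Ccnd2, cyclin D2, had 76.4, 46.2, 58.8 and 112 in the controls, 69.6, 107 and 27.5 in PBC and 16.9, 22.6 and 41.1 in PSC. It lay below every control in PSC, with a change of -1.43 that did not pass (SE 0.50, limma adjusted p = 0.0706) but was called by DESeq2, in a fit of only the compared groups, with array weights, and without PBC 8 or PBC 9. Ccne2, cyclin E2, had 101, 87.3, 194 and 126 in the controls, 49.7, 92.4 and 29.6 in PBC and 65.7, 43.7 and 80.5 in PSC. Its PSC livers were all below the controls and PBC 8 overlapped them, with changes of -1.22 (SE 0.42, limma adjusted p = 0.0837) in PBC and -0.97 (SE 0.42, limma adjusted p = 0.14) in PSC. Array weights, or leaving out PBC 8, gave a call for Ccne2 in PBC. Ccnd3, cyclin D3, stood at 0.50 in PBC and 0.07 in PSC, and Cdk4, its kinase, at 0.18 and 0.54, with every PSC liver above every control for Cdk4 (limma adjusted p = 0.0983). Ccnd1, Ccnd2 and Ccne2 were the 3 genes of the 47 with every PSC liver below every control, where 15.6% of all tested genes were so placed. Cdk2, Ccne1 and E2f1 overlapped between all groups, at changes of -0.38 to 0.52.

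**Figure D4:**
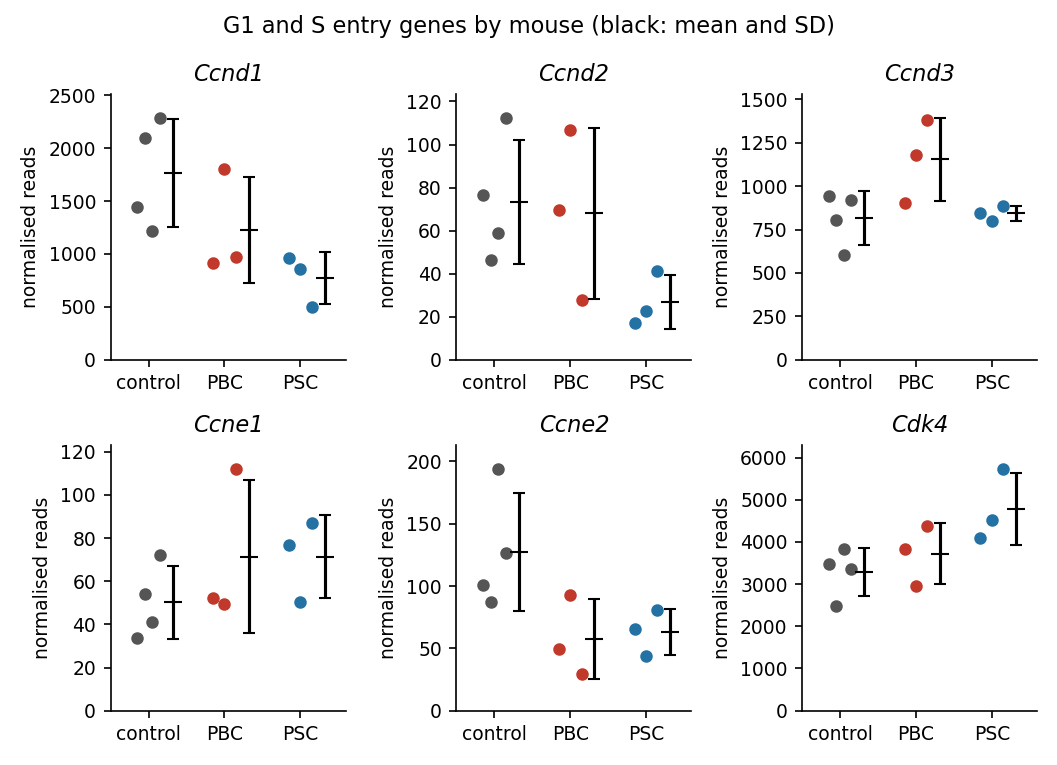
Normalised reads (linear axis from 0) of 6 genes of G1 and S entry in each liver, with the group mean and SD in black (n = 4, 3 and 3). Ccnd1 and Ccnd2 are below every control in the 3 PSC livers, at 496 to 960.5 and 16.9 to 41.1, as is Ccne2. Cdk4 is above every control in PSC. Ccnd3 and Ccne1 overlap the controls in both models, and in PBC all 6 genes overlap them.

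Within the PSC group the livers kept nearly 1 order across the G2 and M genes. PSC 11 was the highest in 26 of the 26 and PSC 13 the lowest in 25, and their medians against the control mean were 2.76 for PSC 11, 0.88 for PSC 13 and 1.83 for PSC 14. In PBC the medians were 1.08, 0.74 and 1.31 for PBC 7, PBC 8 and PBC 9, with PBC 8 lowest in 17 of 26 genes. The controls stood at 0.03, -0.47, 0.33 and 0.13, with control 2 lowest in 13 of 26. Without PSC 11 the number of genes higher in PSC was 8 in place of 18, all 8 of them among the 18, with a G2 and M median of 1.17. Without PSC 14 it was 10, without control 1 it was 11 and without control 2 it was 12, also all among the 18, and in every one of these fits all 18 changes stayed above 0. Leaving out PBC 7 or PBC 9 left 1 of the 6 PBC genes, Mki67, and without control 1, control 2, control 3, control 4 or PSC 14 there were 2 or 3 genes higher in PBC.

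Markers of some other cells changed along with these genes, and those of others did not. The 6 markers of neutrophil precursors, cells of the bone marrow that divide, summed to 23.6 to 58.8 reads in the controls, 4103 to 16955 in PBC and 705.2 to 3264 in PSC, and 6 of 6 rose in PBC and 3 in PSC. Fcnb was at 0 in every control, and Mpo and Elane were at no more than 9.07 there. Their sum was highest in PBC 9 and lowest in PBC 8 among PBC livers, and highest in PSC 11 and lowest in PSC 13 among PSC livers, the same ends as for the G2 and M median. Markers of mature neutrophils (34641 to 99342 in PBC, 8775 to 15977 in PSC), of megakaryocytes (981.5 to 3066 and 981.8 to 1248) and of recruited monocytes (60571 to 72794 and 40741 to 47303) had these same livers at their ends, so this order was not particular to the precursors. Other lists ran otherwise, with T cell, bile duct and stellate cell markers lowest in PBC 9 and in PSC 11. Kupffer cell markers summed to 32543 to 56743 in the controls, 107080 to 160590 in PBC, highest in PBC 8, and 69972 to 90921 in PSC. The 7 bile duct markers summed to 508.3 to 871.1 in the controls, 1107 to 1275 in PBC and 3428 to 3534 in PSC, and within PSC they spanned far less than the G2 and M genes. The 8 markers of stellate cells and fibroblasts summed to 4348 to 7298, 8157 to 15152 and 42069 to 43509. The 6 hepatocyte markers summed to 8.21e+06 to 9.58e+06 in the controls, 8.42e+06 to 1.24e+07 in PBC and 5.46e+06 to 6.61e+06 in PSC. Every PSC liver was below every control in this sum, with PSC 11 lowest. Of these 6 markers 1 rose in PBC, and 0 were called in PSC. The 8 T cell markers summed to 562.2 to 1055 in the controls, 2423 to 3233 in PBC, where 7 rose, and 619.1 to 808.7 in PSC, where 0 rose. The 10 erythroid precursor markers summed to 1207 to 3347, 1867 to 2833 and 2674 to 3946, overlapping in all groups. Of the 6 erythroid markers tested, 1 fell in PBC, and 1 rose and 1 fell in PSC. B cell markers summed to 499.3 to 770.5 in the controls, 1219 to 1693 in PBC and 307.7 to 441.6 in PSC, lowest in PSC 11. The sums of plasma cell markers (39560 to 72947, 45127 to 52650 and 49178 to 59410) and of endothelial markers (8352 to 13250, 5894 to 12502 and 6009 to 9428) overlapped in all groups. Single markers were called all the same. Of the 4 tested plasma cell markers, 2 rose in PBC and 1 in PSC. Of the 6 tested endothelial markers, 0 were called in PBC and 1 fell in PSC. The part of any of these cells, or of depth, in the changes of the G2 and M genes was not tested.

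**Figure D5:**
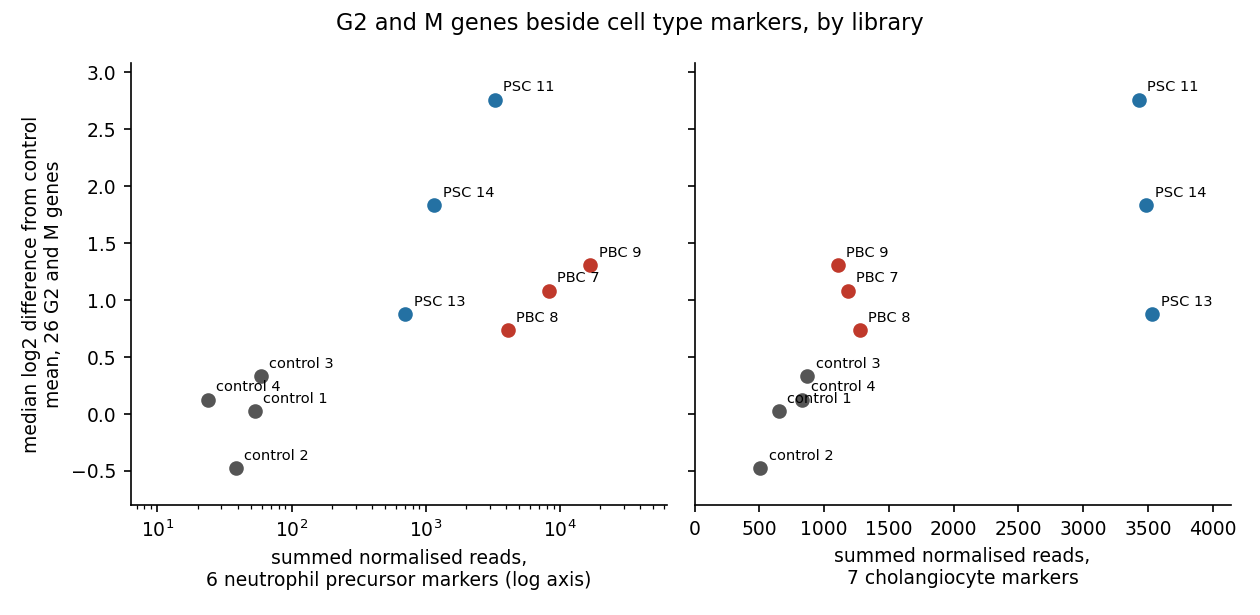
Median log2 difference from the control mean over the 26 tested G2 and M genes (vertical axis) in each liver, against the summed normalised reads of 6 neutrophil precursor markers (left, log axis) and 7 cholangiocyte markers (right, linear axis). The 3 PSC livers lie between 3428 and 3534 on the right while their medians run from 0.88 to 2.76.

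Genes around the cycle engine were taken from 4 further lists. Of 12 inhibitors and pocket proteins, 1 rose and 0 fell in PBC, and 2 rose and 1 fell in PSC. The 1 of PBC is 8.33% of the list, close to the 7.6% of all tested genes that rose. In PSC 16.7% rose and 8.33% fell, beside 8.25% and 6.48% of all tested genes. Cdkn2a, which codes for the p16 inhibitor of Cdk4 and for Arf, an inhibitor of Mdm2 (gene at chr4:89274473-89294619 on mm10), had 5.18, 5.13, 10.2 and 5.55 in the controls, 127, 76.5 and 139.7 in PBC and 20.6, 29.1 and 52.6 in PSC. All cholangitis livers were above all controls, and PBC was above PSC without overlap. Cdkn2a changed by 3.94 (SE 0.48, limma adjusted p = 0.000308) in PBC and 2.17 (SE 0.48, limma adjusted p = 0.00997) in PSC, and by 1.77 between the models (limma adjusted p = 0.0953). DESeq2 called the difference between the models. The PSC call was lost without PSC 14 (limma adjusted p = 0.0789). Cdkn2c, the p18 inhibitor, had 1659, 1727 and 1783 in PSC against 848, 716, 1180.2 and 783 in the controls and rose by 0.99 (SE 0.23, limma adjusted p = 0.0123), lost without PSC 14 (0.0651). Rbl2, the pocket protein p130 that holds resting cells out of the cycle, had 2008, 1525, 1706 and 1998 in the controls, 788, 1722 and 882 in PBC and 762, 867 and 659 in PSC. Rbl2 was below every control in PSC and fell there by 1.25 on the log2 scale (SE 0.26, limma adjusted p = 0.00701), called with each library left out, and in PBC it was at -0.76 (limma adjusted p = 0.0767). Cdkn2d, the p19 inhibitor of the same family, was at 0.87 in PBC (limma adjusted p = 0.0555), Btg2, an antiproliferative gene, at 2.23 in PBC (0.105), and Rb1, the retinoblastoma protein, at -0.92 in PSC (0.057), none past the threshold in limma. DESeq2 called Cdkn2d in both models and Rb1 in PSC. Cdkn1a, the p21 inhibitor, was not called, at 1.55 in PBC and 2.13 in PSC (limma adjusted p = 0.291 and 0.127).

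Of 14 other E2F and MuvB factors 13 were tested, with 0 called in PBC by limma, 4 at an unadjusted p under 0.05 (all lower), 2 called lower by edgeR and 3 by DESeq2. Those nearest the threshold were Lin52, a MuvB subunit, at -0.75, Tfdp1, an E2F partner, at -0.69, and E2f5, a repressor E2F, at -0.64 (limma adjusted p = 0.0552, 0.0625 and 0.0695). In PSC 0 rose and 2 fell, namely Tfdp2, a partner of E2F, by 0.89 (SE 0.19, limma adjusted p = 0.00819), and Lin54, the MuvB subunit that contacts the CHR, by 1.22 (SE 0.37, limma adjusted p = 0.0432). The call of Tfdp2 held with each library left out, and that of Lin54 was lost without control 1, control 2, control 4 or any 1 PSC liver, with no filter and with equal totals (limma adjusted p = 0.0651 to 0.132). The 2 that fell in PSC are 15.4% of the 13 tested, where 6.48% of all tested genes fell. In PBC 26.5% of all tested genes had an unadjusted p under 0.05 by limma. The list medians were -0.39 in PBC and -0.30 in PSC.

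Of 30 other replication genes 29 were tested, and 2 rose in PBC while 3 rose in PSC, with medians of 0.10 and 0.17. These are 6.9% and 10.3% of those tested, close to the 7.6% and 8.25% of all tested genes that rose. Cdt1, which loads the helicase before S phase, had 71.2, 75.7, 74.1 and 115 in the controls, 214, 121 and 226 in PBC and 207, 137 and 166 in PSC, all cholangitis livers being above all controls, and rose by 1.12 in PBC and 1.02 in PSC (limma adjusted p = 0.038 and 0.0434). Pold1, the catalytic subunit of DNA polymerase delta, rose by 0.83 and 0.72 (limma adjusted p = 0.025 and 0.0345). Gins2, a helicase partner, rose in PSC by 1.30 (limma adjusted p = 0.0436), with control 3 above PSC 13. Orc6, of the origin recognition complex, was at -0.60 in PBC and Mcm10, a replication initiation factor, at -1.12 in PSC, neither past the threshold in limma (0.111 and 0.0703). Both edgeR and DESeq2 called Mcm10 lower in PSC, and DESeq2 called it in PBC too. Every one of the limma calls of Cdt1, Pold1 and Gins2 was lost without control 1, and those of PBC also without PBC 7 or PBC 9 and those of PSC without PSC 11, PSC 13 or PSC 14 (limma adjusted p = 0.0554 to 0.161), and leaving out a further library or another setting ended several of them.

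Of the 48 other mitosis genes 2 rose in PBC and 13 in PSC, 0 fell in either, and the medians were 0.66 and 1.13. These are 4.17% and 27.1% of the list, where 7.6% and 8.25% of all tested genes rose, so the share of limma calls in PBC was below that of all genes. Yet 39 of the 48 changes in PBC were above 0. Every PBC liver was above every control for 14 of the 48, where 12.7% of all tested genes were so placed, and below for 1, against 6.89%. DESeq2 called 5 higher and 1 lower in PBC. Incenp, the scaffold of the chromosomal passenger complex, had 117, 154, 146 and 189 in the controls, 438, 299.5 and 509.9 in PBC and 480.2, 288 and 327 in PSC. All cholangitis livers exceeded the controls, and it rose by 1.44 (SE 0.28, limma adjusted p = 0.0057) in PBC and 1.25 (SE 0.28, limma adjusted p = 0.0101) in PSC, the latter lost without PSC 11 (0.0609). Kif15, a spindle motor, rose in PBC by 1.99 (SE 0.45, limma adjusted p = 0.0154), at 42.3, 59.0 and 91.0 reads against 18.1, 16.7, 17.9 and 8.33 in the controls, lost without PBC 9 (0.0866). Stmn1, stathmin, which takes microtubules apart, had 486, 438, 649 and 494 in the controls, 858, 529 and 1276 in PBC and 2588, 1418 and 2199 in PSC. It rose in PSC by 1.97 (SE 0.29, limma adjusted p = 0.00103), called with each library left out. Kif22, a chromosome arm motor, rose in PSC by 1.91 and Espl1, separase, by 2.19 (limma adjusted p = 0.0109 and 0.0118), both lost without PSC 11 or PSC 14. Ncapg, a condensin subunit, and Kif2c, a centromere motor, were at 2.08 and 2.20 in PBC and did not pass in limma (adjusted p = 0.0615 and 0.0656), while DESeq2 called both. Between the models limma called 0 of these 48, with 7 at an unadjusted p under 0.05, 6 of them lower in PBC, while edgeR called 2 and DESeq2 called 4, each lower in PBC.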

How the data were processed

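Whole liver mRNA of 10 mice was sequenced as stranded paired reads, per the labels' protocols. The submitters' processing notes name STAR 2.4.0 with the mm10 build, DESeq2, Picard, FastQC and SAMtools. How reads were counted, and whether by strand, is not given in the sources used here. In every library more models held 2 reads than 1, with 2271 and 547 models in control 1. Whether both mates of a pair were counted was not tested. Deposited signal values are reads of each gene model that the authors had scaled with DESeq2. Within each library 100% of the deposited values were whole multiples of 1 step (0.938 to 2.55 per read, tolerance 0.1), so read counts were recovered by division for edgeR and DESeq2. Depth differed by up to 2.49 times, and deeper libraries give low genes less counting error.

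Models with 10 or more in 3 or more livers were kept (18390), and limma with an intensity trend was fitted to log2(value + 1) over all 10 libraries with 1 mean per group. The pseudocount of 1 understates changes of low genes. Adjusted p is by Benjamini and Hochberg over all tested models, two-sided, with a threshold of 0.05. Alternatives were pseudocounts of 0.5 and 5, no filter, a filter at 50, TMM scaling, equal totals, edgeR's quasi-likelihood test, DESeq2, fits of only the compared groups, array weights and leaving out each library.

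The 48 genes, the other lists and the markers were chosen with earlier results of these data known. Every tested gene is described, with full statistics for called genes. Of the other lists the genes with the smallest adjusted p are named, up to 4 per comparison with the controls. The result of 1 gene of the replication list is not reported here. Cdkn1a was named after its values were seen. Lists are described by counts and medians. Symbols were matched to RefSeq promoters of GRCm38.p6, and exonic length came from GENCODE M21. Limma was tested on simulated data. The tools were DESeq2 1.42.0, edgeR 4.0.16 and limma 3.58.1, under R 4.3.3.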

Additional observations from a re-analysis of the deposited data

Results flagged for a closer look

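In the 4 controls, 2 of the 47 tested genes had a library far from the others by Dixon's ratio of gap to range, where chance gives about 1 in 20. Mki67, the Ki-67 gene, was lowest in control 4 at 15.3 normalised reads, with a gap of 0.883 of the range below the other controls at 33.4 to 35.8. Without control 4 its changes were still called in both models. Cenpf, a kinetochore gene, was highest in control 3 at 30.6, with a gap of 0.87 of the range above the other controls at 1.39 to 5.18, and it passed in no comparison. Control 3 was also the shallowest library.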

How the results depend on the processing

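Members higher in PBC numbered 6 as reported, 3 with no filter, 3 with TMM scaling, 2 with equal totals, 3 in edgeR, 3 with only the compared groups, 15 with array weights, and 1 to 8 with 1 library left out. All 6 changes stayed above 0 in each of these. Members lower in PBC numbered 0, against 1 with array weights and 0 to 1 with a library left out. Members higher in PSC numbered 18, against 30 with array weights and 8 to 20 with a library left out. Members lower in PSC numbered 1, against 0 with equal totals, 2 in DESeq2, 2 with only the compared groups, 3 with array weights and 0 to 2 with a library left out. Members lower in PBC than PSC numbered 0, against 1 with a pseudocount of 5, 1 in edgeR, 4 in DESeq2 and 0 to 1 with a library left out, and 0 were higher in all settings. Of all tested genes, 1398 were higher in PBC, against 853 with equal totals, 752 with only the compared groups, 2425 with array weights and 673 to 1795 with a library left out. Lower in PBC were 430, against 913 in DESeq2, 89 with only the compared groups, 1803 with array weights and 63 to 1569 with a library left out. Higher in PSC were 1518, against 3899 with array weights and 680 to 1911 with a library left out. Lower in PSC were 1192, against 669 with equal totals, 1929 in DESeq2, 1853 with only the compared groups, 3404 with array weights and 245 to 1902 with a library left out. Higher in PBC than PSC were 204, against 128 with equal totals, 590 in DESeq2, 658 with array weights and 61 to 260 with a library left out. Lower in PBC than PSC were 208, against 623 in DESeq2, 701 with array weights and 43 to 303 with a library left out. Equal totals moved the median of all genes in PBC to -0.12. Fewer samples enter the fits with a library left out or with only the compared groups; for the other settings the cause was not tested. No call of a named gene changed direction in any setting. No paired analysis was possible because the mouse numbers in the labels differ between the groups. With 3 or 4 mice a group and few reads for many mitotic genes, a gene that missed the threshold is not shown to be unchanged.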

Other observations

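Ratios between genes within a library do not depend on scaling, and the pairs given here were chosen after their values were seen, so no test is attached. Ccnb1 reads per Mki67 read were 0.208, 0.29 and 0.156 in PBC, 1.26, 1.04 and 0.611 in PSC, and 1, 0.423, 1.29 and 1.64 in the controls, so that every PBC liver lay below all others. Cdk1 reads per Mki67 read were 3.04, 4.42 and 3.84 in PBC, 7.38, 7.98 and 7.68 in PSC, and 6.81 to 24.1 in the controls. Ccnb1 reads per Bub1b read were 0.158 to 0.235 in PBC, 0.175 to 0.514 in the controls and 0.623 to 1.18 in PSC. PSC 11 and PSC 13, at the ends of the PSC group for the G2 and M genes, had ratios of Cdk1 to Mki67 close to each other.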
